A study of Homo sapiens with 12 samples.

Results

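SLC22A17, TMEM45B, APOE, CCPG1, ACBD7 and DDAH1 are 6 genes outside chromosome 12 whose transcripts moved in opposite directions when GALNT7 was lowered in CWR22Rv1 cells and raised in DU145 cells. The first 4 were higher in GALNT7 KD and lower in GALNT7 OE, and ACBD7 and DDAH1 were lower in GALNT7 KD and higher in GALNT7 OE. They were chosen for this pattern from the same normalised read counts, out of 59424 genes in the tables and 16124 that passed the filter on low counts in both cell lines, so the opposite directions are what defines them and are described without a test. All 6 members passed the filter in both cell lines. Genes on chromosome 12 were set aside because they were lower together in GALNT7 KD: 83.2% of the 922 genes tested there had a log2 fold change below 0, with a median of -0.28, against a median of -0.0063 over all genes tested.

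The 6 genes do not belong to a single pathway. SLC22A17 encodes a cell surface receptor for lipocalin 2, a secreted protein that binds iron-carrying siderophores, and APOE encodes a secreted apolipoprotein that carries lipids and is taken up through lipoprotein receptors. CCPG1 encodes a membrane protein of the endoplasmic reticulum (ER) that links pieces of this organelle to the autophagy machinery, a process called ER-phagy. TMEM45B encodes a protein with several membrane-spanning segments that is found in the Golgi and endosomes. ACBD7 encodes a small cytosolic protein of the acyl-CoA binding family, which carries activated fatty acids. DDAH1 encodes the enzyme that breaks down asymmetric dimethylarginine, a methylated amino acid that inhibits nitric oxide synthases.

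The RNA came from 2 prostate cancer cell lines with 3 biological replicates in each of 4 groups, 12 libraries in all. CWR22Rv1 cells carried a lentiviral control shRNA (shControl) or a lentiviral shRNA against GALNT7 (GALNT7 KD). DU145 cells carried a lentiviral open reading frame control (OEControl) or a lentivirus expressing GALNT7 (GALNT7 OE). GALNT7 itself encodes a Golgi enzyme that adds N-acetylgalactosamine to proteins. Whether each line is a clone or a pool, and whether replicates were separate cultures, is not given in the sources used here, so the p-values measure only the spread between these libraries.

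Recovered depth was 18364512 to 22264533 reads per CWR22Rv1 library and 21628718 to 24356910 per DU145 library. The GALNT7 normalised count was 862, 1042 and 1093 in the shControl replicates and 481, 501 and 400 in the GALNT7 KD replicates. It was 1051, 928 and 913 in the OEControl replicates and 1988, 2221 and 2334 in the GALNT7 OE replicates, so that each cell line matched its labels. The epithelial keratin gene KRT8 lay between 9990 and 10833 in CWR22Rv1 libraries and between 11105 and 13361 in DU145 libraries. KRT18, also an epithelial keratin gene, was at 6064 to 6283 in shControl and 4479 to 5304 in GALNT7 KD. Its groups overlapped in DU145 cells. KRT8 and KRT18 both lie on chromosome 12, whose genes were lower together in GALNT7 KD. The epithelial marker EPCAM was at 411 to 440 in shControl and 227 to 282 in GALNT7 KD. In DU145 cells EPCAM was at 351 to 388 in OEControl and 530 to 615 in GALNT7 OE. Of 4 markers of other cell types, PTPRC (leukocytes) and CHGA (neuroendocrine cells) did not exceed 2.10 in any library. COL1A1 (fibroblasts) was at 287 to 419 in OEControl and at 53.6 to 154 in GALNT7 OE, and PECAM1 (endothelium) reached 49.3 in a single GALNT7 OE library. The part of these markers in the results was not tested. In OEControl replicate 1, the transcription factor gene FOXO1 stood at 374, against 2138 and 2544 in the other OEControl libraries, and the fold changes of the 6 members in DU145 cells are therefore also given below with each library left out.

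Positions are on GRCh38 from GENCODE release 29. SLC22A17 (ENSG00000092096) lies at chr14:23346306-23352912 on the minus strand, TMEM45B (ENSG00000151715) at chr11:129815819-129860003 on the plus strand and ACBD7 (ENSG00000176244) at chr10:15077523-15088776 on the minus strand. APOE (ENSG00000130203) lies at chr19:44905754-44909393 on the plus strand, CCPG1 (ENSG00000260916) at chr15:55340032-55408510 on the minus strand and DDAH1 (ENSG00000153904) at chr1:85318481-85578363 on the minus strand. All 6 are protein-coding genes on different chromosomes. The annotation release behind the counts is not given in the sources used here, so which of their exons the counts cover is not known.

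RefSeq promoter windows of GRCh38.p14, from 250 bases before to 50 bases after a start site, were matched by symbol for 5 of the 6 members. These 5 genes had 10 windows, 3 each for APOE and DDAH1, 2 for SLC22A17 and 1 each for ACBD7 and CCPG1, and for each gene the window nearest the start site of its principal transcript in GENCODE 29 was taken as its main window. Main windows for both directions of change are shown so that the reader can see what the sequences around the start sites share: APOE and CCPG1, which were higher in GALNT7 KD, and ACBD7 and DDAH1, which were lower. Each is written 5′ to 3′ on the strand of its gene, and capitals mark matches to the GC box or the CCAAT box. The main APOE window is chr19:44905546-44905845, that of CCPG1 is chr15:55408310-55408609, that of ACBD7 is chr10:15088727-15089026 and that of DDAH1, at a start site within the annotated gene, is chr1:85465110-85465409.
APOE: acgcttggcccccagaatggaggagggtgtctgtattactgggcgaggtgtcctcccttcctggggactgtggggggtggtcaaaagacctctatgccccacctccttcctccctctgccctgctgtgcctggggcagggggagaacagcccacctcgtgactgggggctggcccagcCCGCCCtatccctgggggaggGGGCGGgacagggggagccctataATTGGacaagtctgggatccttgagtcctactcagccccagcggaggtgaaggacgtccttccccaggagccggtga
CCPG1: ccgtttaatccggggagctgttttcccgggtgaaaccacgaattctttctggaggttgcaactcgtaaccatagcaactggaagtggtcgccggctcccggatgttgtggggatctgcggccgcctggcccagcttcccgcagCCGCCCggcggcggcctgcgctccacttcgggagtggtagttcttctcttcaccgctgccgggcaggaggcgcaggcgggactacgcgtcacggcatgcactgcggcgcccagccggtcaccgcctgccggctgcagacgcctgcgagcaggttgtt
ACBD7: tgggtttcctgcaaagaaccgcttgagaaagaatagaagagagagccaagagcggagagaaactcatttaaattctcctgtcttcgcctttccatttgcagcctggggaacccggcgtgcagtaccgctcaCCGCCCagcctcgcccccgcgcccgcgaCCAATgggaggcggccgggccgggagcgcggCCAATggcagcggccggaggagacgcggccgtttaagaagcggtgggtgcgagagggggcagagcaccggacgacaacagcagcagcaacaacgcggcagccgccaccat
DDAH1: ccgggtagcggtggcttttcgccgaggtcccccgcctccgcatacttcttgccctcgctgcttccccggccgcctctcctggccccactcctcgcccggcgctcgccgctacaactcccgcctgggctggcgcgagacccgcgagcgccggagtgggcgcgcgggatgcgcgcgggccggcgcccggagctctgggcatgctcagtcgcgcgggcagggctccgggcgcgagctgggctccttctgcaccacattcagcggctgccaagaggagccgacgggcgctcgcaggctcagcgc
Searched on both strands were the GC box with the letters GGGCGG, the CCAAT box with the letters of its name, the TATA box with TATAAA, the E-box with CACGTG, the forkhead core with GTAAACA, the ATF4 element with TGATGNAA and the antioxidant element with TGACNNNGC. A match is a string of letters and not a shown site of binding. APOE held GC boxes 72 and 51 bases before its start site and a CCAAT box at 27 bases. In CCPG1 a GC box lay 107 bases upstream. ACBD7 held a GC box at 119 bases and CCAAT boxes at 91 and 60 bases upstream, and the main window of SLC22A17 (chr14:23352838-23353137, minus strand) held a CCAAT box at 243 bases. Of the other 5 windows, that of SLC22A17 at chr14:23352402-23352701 held GC boxes 246 and 147 bases before its start site, that of APOE at chr19:44906151-44906450 held a CCAAT box at 202 bases, and that of DDAH1 at chr1:85404457-85404756 held a TATA box at 189 bases, while a further window of APOE and one of DDAH1 matched none of the motifs. Of 35116 windows of this length, 45.0% held a GC box and 34.6% a CCAAT box. None of the 10 windows held the letters of the forkhead core, the E-box, the ATF4 element or the antioxidant element, which were found in 3.42%, 7.26%, 3.62% and 13.3% of all windows, and the TATA box, in 11.5% of all windows, was found in the DDAH1 window named above and in no main window. The main DDAH1 window matched none of the 7 motifs and had the highest GC content of the 5 main windows, at 75.3%, against 59.0% for SLC22A17, 63.7% for ACBD7, 65.0% for APOE, 66.0% for CCPG1 and a median of 58.7% over all windows.

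In both cell lines, the 3 libraries with altered GALNT7 lay wholly above or wholly below the 3 control libraries for each of the 6 members. The members were picked for this contrast, so nothing is read from these counts. Among all genes tested, the groups did not overlap for 32.5% in GALNT7 KD (16.9% higher and 15.6% lower) and for 55.3% in GALNT7 OE (28.2% higher and 27.1% lower). Of the 16124 genes tested in both, 10.0% had groups that did not overlap and lay in opposite directions, with 4.78% higher in GALNT7 KD and lower in GALNT7 OE and 5.26% the other way round. For 10.9% the groups did not overlap and lay in the same direction, so opposite changes were no more common than shared ones. Fold changes are given on the scale of log2(normalised count + 1), which understates changes at low counts, and their standard errors (SE) come from a limma fit across all genes. In bulk RNA a smaller share of cells with a transcript and less transcript per cell cannot be told apart.

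**Figure D1:**
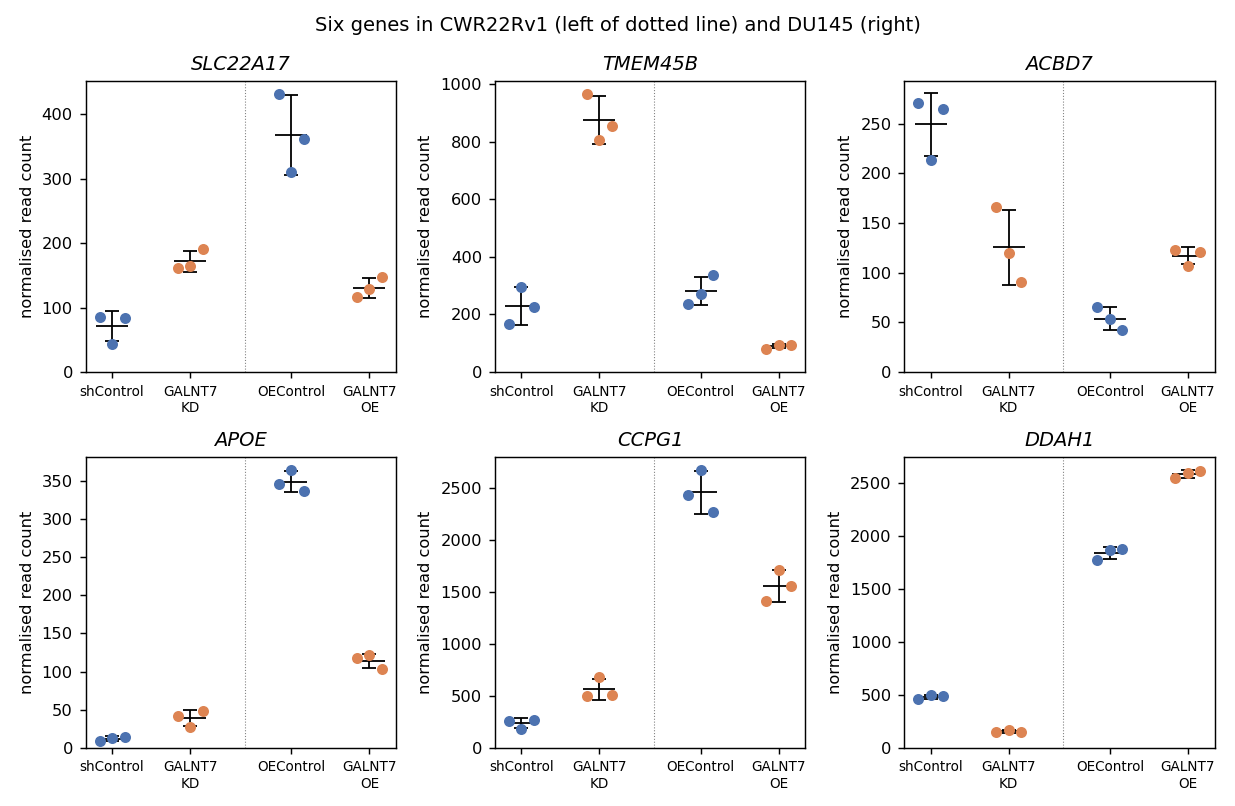
Normalised read count (vertical axes, starting at 0) of the 6 genes in each of the 12 libraries, with points for libraries and bars for the mean ± SD of 3 libraries per group. Blue points are shControl or OEControl libraries and orange points GALNT7 KD or GALNT7 OE libraries; the dotted line separates CWR22Rv1 from DU145, whose tables were scaled separately. In each panel the orange points lie on opposite sides of the blue points in the 2 cell lines.

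SLC22A17, the lipocalin 2 receptor gene, had normalised counts of 84.9, 44.2 and 84.2 in the shControl replicates and 161, 164 and 191 in the GALNT7 KD replicates. The mean was 71.1 ± 23.3 in shControl and 172 ± 16.1 in GALNT7 KD (SD, n = 3), which is 2.42 times the control, with a log2 fold change of 1.32 (SE 0.269). Every GALNT7 KD library was above every shControl library, and shControl replicate 2 stood well below the other 2 control libraries. Without that replicate or any other, the log2 fold change lay between 1.01 and 1.48. In DU145 cells the counts were 432, 310 and 362 in OEControl and 116, 129 and 147 in GALNT7 OE. Means of 368 ± 61.5 and 131 ± 15.3 (SD, n = 3) gave a log2 fold change of -1.48 (SE 0.156), and the lowest control library was 2.11 times the highest GALNT7 OE library.

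TMEM45B had the largest rise of the 6 in GALNT7 KD. The counts of this Golgi and endosome membrane protein gene were 166, 295 and 225 in shControl and 966, 804 and 852 in GALNT7 KD. Its mean went from 229 ± 64.7 to 874 ± 82.9 (SD, n = 3), 3.82 times the control, with a log2 fold change of 1.96 (SE 0.206). Only 131 of the 17906 genes tested, or 0.732%, had a larger rise. The counts in DU145 cells were 238, 270 and 336 in OEControl and 81.2, 92.4 and 94.4 in GALNT7 OE, a log2 fold change of -1.63 (SE 0.157) from means of 281 ± 49.9 and 89.3 ± 7.13 (SD, n = 3). Relative to their mean, the control libraries varied more than the others in both cell lines, but the nearest libraries of opposite groups still differed by 2.72 times in CWR22Rv1 and 2.52 times in DU145.

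APOE, the apolipoprotein gene, was barely detected in shControl cells, with counts of 8.40, 13.3 and 13.7 that rested on 9 to 15 reads per library. In GALNT7 KD cells it had 41.6, 27.7 and 48.2, from 26 to 50 reads. The mean was 11.8 ± 2.95 in shControl and 39.2 ± 10.4 in GALNT7 KD (SD, n = 3), a log2 fold change of 1.64 (SE 0.322). The 2 groups were separate, but with so few reads the size of this change was the least precise of the 6, as its SE shows. In DU145 cells APOE was well measured, at 346, 364 and 337 in OEControl and 118, 121 and 104 in GALNT7 OE. The means of 349 ± 14.0 and 114 ± 9.24 (SD, n = 3) gave a log2 fold change of -1.60 (SE 0.108), with the control libraries close together and far above the others.

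CCPG1, the ER-phagy receptor gene, had counts of 261, 185 and 271 in shControl and 502, 677 and 510 in GALNT7 KD. Its mean of 239 ± 47.2 in shControl became 563 ± 99.2 (SD, n = 3), with a log2 fold change of 1.24 (SE 0.189), and the replicates numbered 2 held the lowest control and the highest knockdown value. In DU145 cells CCPG1 was abundant, at 2433, 2679 and 2272 in OEControl and 1410, 1716 and 1558 in GALNT7 OE. The means were 2461 ± 205 and 1561 ± 153 (SD, n = 3), with a log2 fold change of -0.66 (SE 0.0928). The groups did not overlap, although the nearest libraries differed by only 1.32 times, and 18.4% of the 18705 genes tested had a larger drop in GALNT7 OE. The gene PIGB, of glycosylphosphatidylinositol anchor synthesis, overlaps CCPG1 on the opposite strand and was counted separately in these stranded libraries. PIGB had a log2 fold change of 0.03 in GALNT7 KD (limma adjusted p = 0.93) and -0.13 in GALNT7 OE (limma adjusted p = 0.39). The readthrough transcript gene DNAAF4-CCPG1 had reads in a single library only, at 10.3.

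ACBD7, the acyl-CoA binding protein gene, was lower in GALNT7 KD, with counts of 271, 213 and 265 in shControl and 166, 119 and 90.5 in GALNT7 KD. Means of 249 ± 31.6 and 125 ± 38.2 (SD, n = 3) gave a log2 fold change of -1.02 (SE 0.233). This was the narrowest gap of the 6 in CWR22Rv1 cells, where the lowest control library was 1.28 times the highest knockdown library, and the knockdown libraries were spread. Leaving out each library in turn moved the log2 fold change between -1.25 and -0.81. In DU145 cells ACBD7 had 65.9, 53.2 and 42.3 in OEControl and 123, 107 and 121 in GALNT7 OE, a log2 fold change of 1.13 (SE 0.194) from means of 53.8 ± 11.8 and 117 ± 8.62 (SD, n = 3). OEControl replicate 1 was the highest of its group, but remained below each GALNT7 OE library.

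DDAH1, the dimethylargininase gene, had replicates close together in every group. Its counts were 462, 501 and 485 in shControl and 148, 172 and 144 in GALNT7 KD. The mean of 483 ± 19.8 dropped to 155 ± 14.8 (SD, n = 3), with a log2 fold change of -1.64 (SE 0.108), and the 2 groups were far apart. In DU145 cells DDAH1 had 1773, 1869 and 1873 in OEControl and 2545, 2599 and 2617 in GALNT7 OE. The rise from 1839 ± 56.5 to 2587 ± 37.7 (SD, n = 3) was the smallest change of the 6, with a log2 fold change of 0.49 (SE 0.0482), and 18.3% of all genes tested had a larger rise in GALNT7 OE. It was nevertheless present in every library, with the highest control at 1873 and the lowest GALNT7 OE library at 2545. The long noncoding RNA gene AC092807.3 lies within DDAH1 on the same strand, so reads could be shared, but it had a mean of only 21.3 in OEControl and 42.1 in GALNT7 OE.

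**Figure D2:**
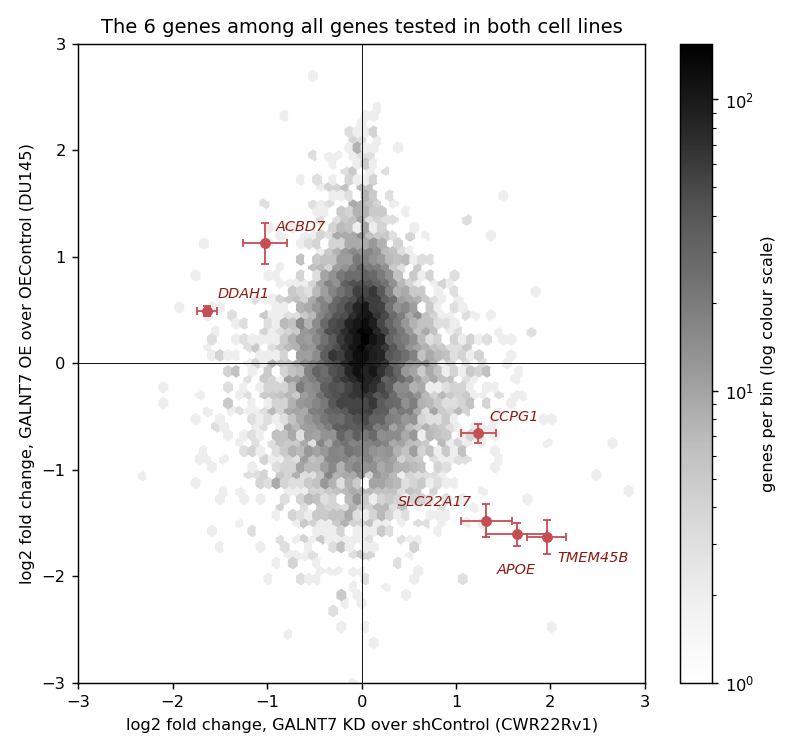
Log2 fold change in GALNT7 KD (horizontal axis) against that in GALNT7 OE (vertical axis) for the 16124 genes tested in both cell lines, with grey hexagons shaded by the number of genes on a log scale and the 6 members as red points with bars for the SE. SLC22A17, TMEM45B, APOE and CCPG1 lie at the lower right and ACBD7 and DDAH1 at the upper left, by their selection; 151 genes lie beyond the axes.

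The balance of the changes differed among the members. SLC22A17, TMEM45B, APOE and ACBD7 changed by more than 1 on the log2 scale in both cell lines, from 1.02 to 1.96 in size, whereas CCPG1 and DDAH1 did so only in GALNT7 KD. When the DU145 libraries were left out singly, the fold change on the log2 scale lay between -1.60 and -1.36 for SLC22A17, between -1.74 and -1.50 for TMEM45B and between -1.65 and -1.54 for APOE. The corresponding ranges were -0.73 to -0.59 for CCPG1, 0.97 to 1.28 for ACBD7 and 0.47 to 0.51 for DDAH1. Because the groups of each member do not overlap, leaving out a library could change the size of these values but not their direction. Among the CWR22Rv1 libraries the ranges were 1.75 to 2.17 for TMEM45B, 1.43 to 1.87 for APOE, 1.06 to 1.34 for CCPG1 and -1.72 to -1.59 for DDAH1. Starting levels also differed. Lengths for them were taken over all exons of a gene in GENCODE release 29, which may differ from the exons behind the counts. Per kilobase of exon, the shControl means were in the order ACBD7 (167), DDAH1 (106), TMEM45B (75.6), CCPG1 (27.2), SLC22A17 (16.6) and APOE (5.39), and no neighbours in this order overlapped in their 3 libraries. In GALNT7 KD cells the order of normalised counts per kilobase became TMEM45B (289), ACBD7 (83.7), CCPG1 (64.0), SLC22A17 (40.2), DDAH1 (33.9) and APOE (17.9), with ACBD7 and CCPG1 overlapping. DDAH1 thus moved from the second place to the fifth, and TMEM45B came to the top.

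In OEControl cells the normalised counts per kilobase were 403 for DDAH1, 280 for CCPG1, 159 for APOE, 92.8 for TMEM45B, 86.0 for SLC22A17 and 35.9 for ACBD7, with TMEM45B and SLC22A17 overlapping. In GALNT7 OE cells DDAH1 (566) and CCPG1 (178) kept the first places, followed by ACBD7 (78.1), APOE (52.2), SLC22A17 (30.6) and TMEM45B (29.5), of which the last 2 overlapped. ACBD7 thus went from the lowest of the 6 to the third. The tables of the cell lines were scaled separately, so these levels are set side by side only within a cell line.

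Over the 12 libraries, with each gene centred on its mean in each cell line, the members followed each other closely, as their selection requires. Pearson's r between members of the same direction ran from 0.77 for ACBD7 with DDAH1 to 0.97 for TMEM45B with APOE. These correlations describe libraries that fall into groups and share their depth within a library, and no p is given. Among 11816 genes whose mean reached 50 in each of the 2 tables, the genes most like each member were ranked by the same measure. This ranking favours genes with opposite changes, because the members were picked for them, and the genes named here had them. SMARCD3, a chromatin remodelling subunit, was most like SLC22A17 (r = 0.98), with log2 fold changes of 0.73 in GALNT7 KD and -0.83 in GALNT7 OE. SGCB, a sarcoglycan gene, was most like TMEM45B (r = 0.99, log2 fold changes of 0.54 and -0.43). ELK3, a transcription factor gene on chromosome 12 with r = 0.98 to APOE, had log2 fold changes of 0.86 and -0.77. The gene most like CCPG1 was CHMP5, of membrane scission (r = 0.97, log2 fold changes of 0.22 and -0.10). That most like ACBD7 was MAPK6, a protein kinase (r = 0.98, log2 fold changes of -0.29 and 0.40). P2RY1, a purine receptor gene, was most like DDAH1 (r = 0.99), followed by the vimentin gene VIM (r = 0.97) and the metallothionein gene MT1E (r = 0.97).

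Genes that work with each member were taken from lists of its ligands, family members and pathway. The lists were chosen with earlier results of these data known, so their shares are described and not tested against all genes. In GALNT7 KD, 13 of 76 listed genes tested were higher and 5 were lower, that is 23.7% called against 9.06% of all 17906 genes tested (limma adjusted p under 0.05), of which 5.28% were higher and 3.79% lower. In GALNT7 OE, 18 of 78 were higher and 23 were lower, or 52.6% against 43.5% of all 18705 genes tested, of which 22.9% were higher and 20.5% lower. Of the 18 calls in GALNT7 KD, 7 held when each library was left out in turn, and of the 41 calls in GALNT7 OE 36 did. The counts of each list below are to be read beside the shares of all genes given here.

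In DU145 cells the ligand of SLC22A17 fell together with the lower receptor transcript. LCN2, the gene of lipocalin 2, had counts of 6988, 6796 and 7119 in OEControl and 36.1, 36.0 and 26.2 in GALNT7 OE, a log2 fold change of -7.70 (SE 0.133, limma adjusted p = 5.1e-07). The 3 GALNT7 OE libraries were all far below the controls. In CWR22Rv1 cells LCN2 did not exceed 2 reads in any library and was not tested, so the receptor transcript was higher there with its ligand at the limit of detection. Of the other genes of iron handling, 4 of 16 tested were higher and 0 lower in GALNT7 KD (median log2 fold change of the list 0.20), while 3 of 18 were higher and 6 lower, LCN2 included, in GALNT7 OE (median -0.25).

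FTH1, the heavy chain of the iron store ferritin, rose in GALNT7 KD (log2 fold change 0.35, limma adjusted p = 0.0032) and fell in GALNT7 OE (-0.62, limma adjusted p = 7.6e-06, and -0.41 after quantile normalisation, limma adjusted p = 5.7e-04). ACO1, the cytosolic aconitase that also regulates iron genes, had log2 fold changes of 0.67 (limma adjusted p = 0.012) and -1.47 (limma adjusted p = 3.3e-06). Its call in GALNT7 KD was lost without GALNT7 KD replicate 1, shControl replicate 1 or shControl replicate 3 (limma adjusted p from 0.052 to 0.054). FTL, the light chain of ferritin, rose in both, by 0.23 in GALNT7 KD (limma adjusted p = 0.013, but 0.060 without shControl replicate 1) and by 0.41 in GALNT7 OE (limma adjusted p = 9.0e-05). The rise of FTL in GALNT7 OE depended in size on the scaling, at 0.31 with libraries rescaled to a common 75th percentile and 0.67 after quantile normalisation (limma adjusted p = 3.0e-04 and 3.6e-04). HMOX1, the haem-degrading enzyme gene, had 161, 155 and 159 in shControl and 526, 507 and 581 in GALNT7 KD, a log2 fold change of 1.76 (limma adjusted p = 4.4e-04), with no overlap. In GALNT7 OE its log2 fold change was -0.07 (limma adjusted p = 0.46). SLC25A37, the mitochondrial iron importer gene, fell in GALNT7 OE by 1.18 on the log2 scale (limma adjusted p = 8.0e-06).

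TMEM45A, the closest relative of TMEM45B, was expressed in both cell lines, at means of 201 in shControl and 221 in OEControl. Its log2 fold changes were -0.14 in GALNT7 KD (limma adjusted p = 0.76) and -0.23 in GALNT7 OE (limma adjusted p = 0.32), and its groups overlapped in both cell lines. TMEM45B was picked for its opposite changes and TMEM45A was not, so no difference between these relatives is read from this.

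**Figure D3:**
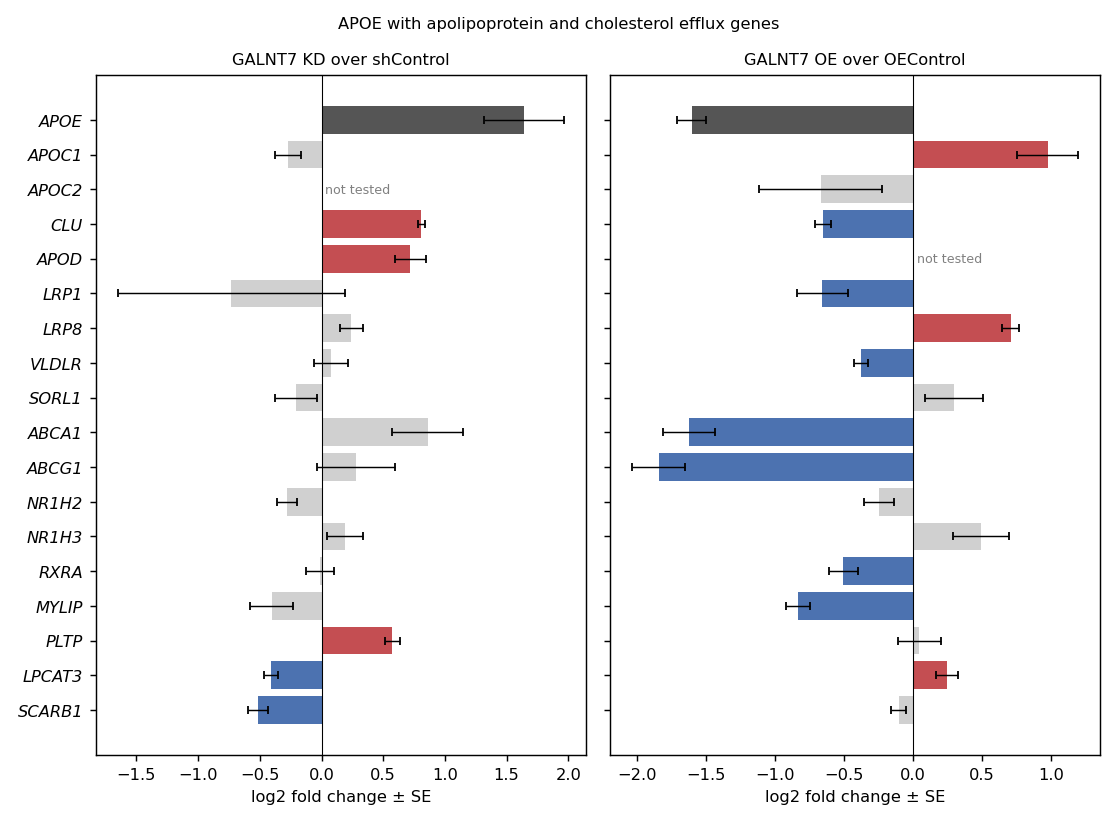
Log2 fold change ± SE of APOE (dark grey) and of apolipoprotein and cholesterol efflux genes in GALNT7 KD (left) and GALNT7 OE (right); red bars are higher and blue bars lower at a limma adjusted p under 0.05, light grey bars did not pass, and the 2 horizontal axes differ in range. CLU follows the directions of APOE in both panels, while ABCA1 and ABCG1 are lower on the right only.

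Around APOE, 3 of 17 apolipoprotein and cholesterol efflux genes tested were higher and 3 lower in GALNT7 KD (median log2 fold change -0.014), and 4 of 17 were higher and 7 lower in GALNT7 OE (median -0.25). CLU, the gene of the apolipoprotein clusterin, had 12847, 13161 and 13170 in shControl and 23163, 22778 and 22710 in GALNT7 KD, a log2 fold change of 0.81 (limma adjusted p = 5.3e-05). In DU145 cells it fell by 0.65 on the log2 scale (limma adjusted p = 1.7e-04). CLU therefore had the directions of APOE in both cell lines, and its groups did not overlap in either.

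The sterol efflux pumps ABCA1 and ABCG1, which load lipid onto apolipoproteins, fell in GALNT7 OE by 1.62 and 1.84 on the log2 scale (limma adjusted p = 5.5e-04 and 3.6e-04). ABCA1 had only 11.2 to 17.7 in shControl and 23.2 to 32.7 in GALNT7 KD, groups that did not overlap, but it did not pass the test there (limma adjusted p = 0.12). PLTP, the phospholipid transfer protein gene, rose by 0.57 in GALNT7 KD (limma adjusted p = 0.0040) and had a log2 fold change of 0.04 in GALNT7 OE (limma adjusted p = 0.84). APOD rose by 0.72 in GALNT7 KD (limma adjusted p = 0.019), a call lost without replicate 1 or 2 of GALNT7 KD or replicate 1 or 3 of shControl (limma adjusted p from 0.050 to 0.076). SCARB1, a lipoprotein receptor gene, fell there by 0.52 (limma adjusted p = 0.014), lost without GALNT7 KD replicate 1, shControl replicate 1 or shControl replicate 3 (limma adjusted p from 0.057 to 0.062). LPCAT3, a phospholipid acyltransferase gene, also fell there by 0.41 (limma adjusted p = 0.0087). Both SCARB1 and LPCAT3 lie on chromosome 12, whose genes were lower together in GALNT7 KD. In GALNT7 OE LPCAT3 rose by 0.25 (limma adjusted p = 0.045), a call that held only without GALNT7 OE replicate 1 (0.066 to 0.13 with the others) and that was lost at 0.15 with 75th percentile rescaling and 0.14 with quantile normalisation (limma adjusted p = 0.17 and 0.19). APOC1, which lies 4854 bases from APOE, did not share its directions, with log2 fold changes of -0.28 in GALNT7 KD (limma adjusted p = 0.16) and 0.97 in GALNT7 OE (limma adjusted p = 0.011).

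**Figure D4:**
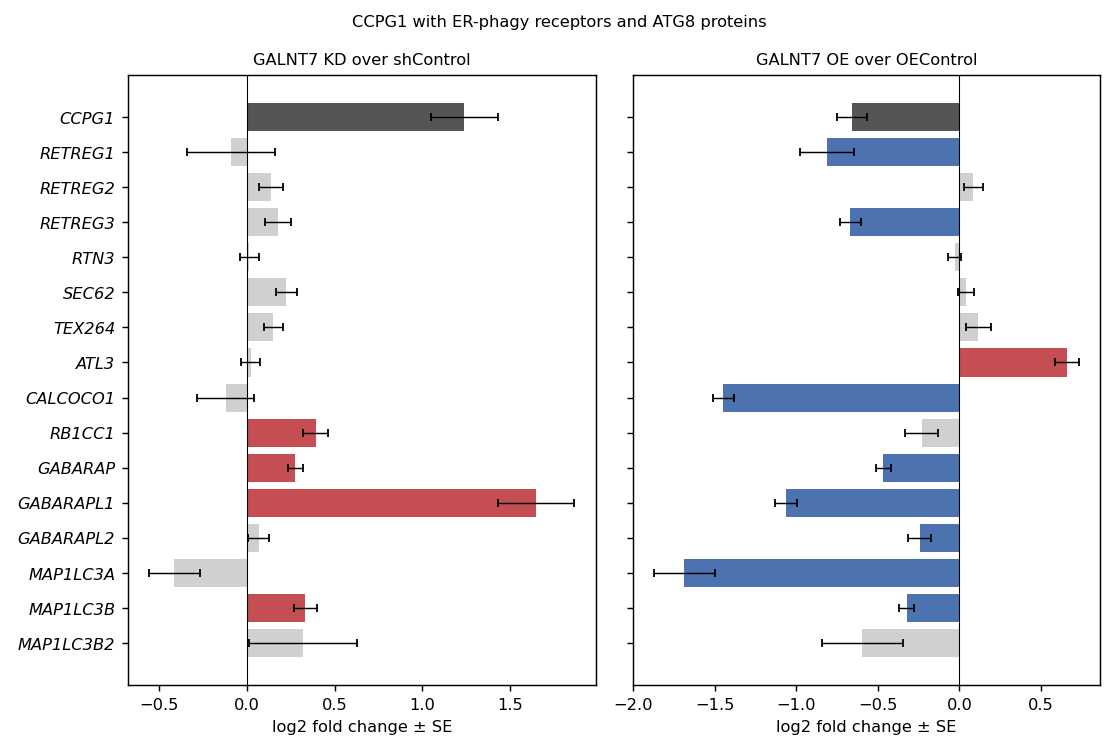
Log2 fold change ± SE of CCPG1 (dark grey) and of ER-phagy receptor and ATG8 family genes in GALNT7 KD (left) and GALNT7 OE (right), coloured by the limma adjusted p as in the plot of apolipoprotein genes, with horizontal axes that differ in range. GABARAPL1 rises with CCPG1 on the left and falls with it on the right, and 8 bars are blue on the right against 0 on the left. Of all genes tested, 20.5% were lower in GALNT7 OE and 3.79% in GALNT7 KD.

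Around CCPG1, 4 of 15 ER-phagy receptor and ATG8 family genes were higher and 0 lower in GALNT7 KD (median log2 fold change 0.15), and 1 was higher and 8 lower in GALNT7 OE (median -0.32). Of all genes tested, 5.28% were higher and 3.79% lower in GALNT7 KD, and 22.9% were higher and 20.5% lower in GALNT7 OE. ATG8 proteins coat autophagosomes and are what CCPG1 binds to. GABARAPL1, an ATG8 gene, had 170, 145 and 134 in shControl and 369, 430 and 647 in GALNT7 KD, a log2 fold change of 1.65 (limma adjusted p = 0.0082), against the general direction of chromosome 12, on which it lies. In DU145 cells it had 1367, 1441 and 1448 in OEControl and 646, 679 and 711 in GALNT7 OE, a log2 fold change of -1.06 (limma adjusted p = 3.8e-05), so that the groups were separate in both.

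The ATG8 genes GABARAP and MAP1LC3B had smaller changes in the same directions. GABARAP had log2 fold changes of 0.27 (limma adjusted p = 0.014) and -0.47 (limma adjusted p = 2.8e-04), and MAP1LC3B of 0.33 (limma adjusted p = 0.026) and -0.32 (limma adjusted p = 0.0014). In GALNT7 KD the GABARAP call was lost without GALNT7 KD replicate 1 or any shControl replicate (limma adjusted p from 0.050 to 0.065). The MAP1LC3B call in GALNT7 KD held only when GALNT7 KD replicate 3 was the library left out (0.069 to 0.099 with the others, limma adjusted p). RB1CC1, the autophagy initiation scaffold that CCPG1 also binds, rose by 0.39 in GALNT7 KD (limma adjusted p = 0.022), lost without GALNT7 KD replicate 1, shControl replicate 1 or shControl replicate 3 (0.061 to 0.083). Of the ER-phagy receptors, RETREG1 and RETREG3 fell in GALNT7 OE by 0.81 and 0.67 on the log2 scale (limma adjusted p = 0.0070 and 2.7e-04). CALCOCO1 fell there by 1.45 (limma adjusted p = 1.0e-05), and ATL3 rose by 0.66 (limma adjusted p = 4.6e-04). None of these 4 receptors passed the test in GALNT7 KD, with log2 fold changes from -0.12 to 0.18.

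Around ACBD7, 1 of 11 acyl-CoA binding and fatty acid activation genes was higher and 1 lower in GALNT7 KD (median log2 fold change 0.12), and 7 of 12 were higher and 1 lower in GALNT7 OE (median 0.28). DBI, the founding member of the acyl-CoA binding family, rose in GALNT7 OE from 1424, 1322 and 1314 to 2523, 2451 and 2634, a log2 fold change of 0.91 (limma adjusted p = 4.5e-05). ACBD6 and ACBD5 also rose there, by 0.66 (limma adjusted p = 2.9e-04) and 0.37 (limma adjusted p = 0.0039), and ACBD4 fell by 0.88 (limma adjusted p = 0.0014). ACBD3 had a log2 fold change of 0.04 (limma adjusted p = 0.71). In GALNT7 KD none of these 5 relatives passed the test, with log2 fold changes from -0.02 for ACBD6 to 0.27 for DBI, against -1.02 for ACBD7. ACBD7 was picked for its opposite changes and these relatives were not, so no difference between them is read from this. Of the listed genes, FABP5, a fatty acid carrier gene, had the largest rise in GALNT7 OE, at 1.55 (limma adjusted p = 9.8e-05). The calls in GALNT7 KD were ECI2, which was lost whichever library was left out (limma adjusted p from 0.073 to 0.15), and ACSL4, which held only without shControl replicate 2 (0.076 to 0.14 with the others).

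Around DDAH1, 1 of 16 genes of asymmetric dimethylarginine and nitric oxide metabolism was higher and 1 lower in GALNT7 KD (median log2 fold change 0.02), and 3 of 15 were higher and 1 lower in GALNT7 OE (median 0.04). DDAH2, the other dimethylargininase gene, had 177, 357 and 101 in shControl and 421, 368 and 207 in GALNT7 KD, so that the groups overlapped (log2 fold change 0.77, limma adjusted p = 0.36). It was listed at 0 in all 6 DU145 libraries, and its level there is uncertain. DDAH2 lies in the HLA region, which has alternative copies in the genome, and whether this bears on these values was not tested. PRMT6, a methyltransferase of the family that makes the substrate of DDAH1, fell in GALNT7 KD by 0.57 (limma adjusted p = 0.0070), and PRMT3 rose in GALNT7 OE by 1.27 (limma adjusted p = 3.9e-04). ASS1, which remakes arginine for nitric oxide synthesis, fell in GALNT7 OE from 2728, 2800 and 2683 to 837, 876 and 864, a log2 fold change of -1.67 (limma adjusted p = 3.2e-06). GUCY1A1, a subunit of the nitric oxide receptor, rose in GALNT7 KD by 0.83 (limma adjusted p = 0.021), lost without replicate 1 or 3 of either group (0.059 to 0.082). The endothelial nitric oxide synthase gene NOS3 was expressed in CWR22Rv1 cells, at 1545 to 1854 in shControl and 1441 to 1926 in GALNT7 KD, with a log2 fold change of -0.0037 (limma adjusted p = 0.99).

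The changes of the members were compared with those of the genes around them. Within 250 kb of the 6 genes, 2 of 56 genes tested were higher and 4 lower in GALNT7 KD, or 10.7% against 9.06% of all genes. In GALNT7 OE, 11 of 60 were higher and 18 lower, or 48.3% against 43.5%. For SLC22A17 and TMEM45B, 0 of 13 and 0 of 4 neighbours passed the limma test in GALNT7 KD. In GALNT7 OE, 3 of 12 neighbours of SLC22A17 were lower and 0 higher, and of 3 neighbours of TMEM45B 2 were lower and 1 was higher. Around APOE, 1 of 16 neighbours was higher and 1 lower in GALNT7 KD, whereas 2 of 18 were higher and 10 lower in GALNT7 OE, the direction of APOE there, against 20.5% of all genes lower. The lower ones included BCAM, CEACAM19, RELB and BCL3, with log2 fold changes of -1.71, -1.45, -1.03 and -0.61 (limma adjusted p = 2.9e-06, 3.1e-04, 0.0034 and 7.3e-04). Of the neighbours of ACBD7, CCPG1 and DDAH1 in GALNT7 OE, 3 of 10, 2 of 9 and 3 of 8 were higher and 1 was lower for each. Not all neighbour calls in GALNT7 OE held when each library was left out in turn. ZFHX2-AS1, near SLC22A17, was lost in 4 of 6 such fits, PPP1R37, near APOE, in 5 and BCL10, near DDAH1, in 5. DNAAF4 was lost in 2 of 6 fits and CLPTM1 in 1, while the other neighbour calls in GALNT7 OE held. TOMM40, which lies 2065 bases from APOE, had log2 fold changes of 0.0048 in GALNT7 KD (limma adjusted p = 0.97) and 0.76 in GALNT7 OE (limma adjusted p = 4.3e-05), the latter opposite to APOE, and APOC1 was the other higher neighbour.

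The neighbours RAB27A, SYDE2 and CBLC passed the test in both comparisons with the directions of the member nearby. RAB27A, a secretory vesicle GTPase gene 20919 bases from CCPG1, had log2 fold changes of 0.58 (limma adjusted p = 0.034) and -0.77 (limma adjusted p = 0.0010). SYDE2, near DDAH1, had -1.35 (limma adjusted p = 0.047) and 0.46 (limma adjusted p = 0.0094), and CBLC, a ubiquitin ligase gene near APOE, had 0.53 (limma adjusted p = 0.029) and -1.19 (limma adjusted p = 5.5e-04). Their calls in GALNT7 KD did not hold: RAB27A was lost when any library except GALNT7 KD replicate 2 was left out (0.064 to 0.11), SYDE2 without GALNT7 KD replicate 1 or any shControl replicate (0.11 to 0.12) and after quantile normalisation (0.051), and CBLC without each library in turn (0.061 to 0.10, limma adjusted p). BCAM, a laminin receptor gene 84333 bases from APOE, also passed in both comparisons but was lower in both, with a log2 fold change of -0.59 in GALNT7 KD (limma adjusted p = 0.012), opposite to APOE there. This call was lost without GALNT7 KD replicate 1, shControl replicate 1 or shControl replicate 3 (limma adjusted p from 0.053 to 0.058). CYR61, 2398 bases from DDAH1 and the gene of a secreted matrix protein, fell in GALNT7 KD by 1.34 on the log2 scale (limma adjusted p = 0.0038) and also fell in GALNT7 OE, by 0.28 (limma adjusted p = 2.3e-04). Its call in GALNT7 KD held when each library was left out (limma adjusted p of at most 0.024), so that it shared the direction of DDAH1 in CWR22Rv1 cells and not in DU145 cells.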

How the data were processed

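RNA-seq of polyadenylated, stranded libraries was analysed from CWR22Rv1 (shControl, GALNT7 KD) and DU145 (OEControl, GALNT7 OE) cells. The authors deposited 1 table of normalised counts per cell line, a signal in which reads on each of 59424 Ensembl genes had been divided by each library's size factor. The submitters' processing notes name R 3.5.3, FastQC, Salmon, DESeq2 and hg38, without their order or role, and the annotation release is not given in the sources used here. Whole reads were recovered from the smallest step of each library, and 100% of values came out whole within 0.01 reads. GENCODE release 29 held 94.4% of the identifiers.

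Each cell line had its own fit with limma 3.58.1 in R 4.3.3 (linear models with a variance trend in eBayes). The input was log2(normalised count + 1) of genes whose mean reached 5, with Benjamini-Hochberg adjustment over all genes tested and a threshold of 0.05. Read depth limits precision most for APOE in shControl, with 9 to 15 reads. The fit was tested on simulated counts. The 6 members and the gene lists were chosen with earlier results of these data known. The named genes were the members, their relatives and partners, listed genes called in both comparisons or among the 3 largest calls per list with a mean of at least 50, neighbours within 250 kb, and the 3 genes most like each member. Alternatives were other pseudocounts, filters and scalings, a replicate block, eBayes without trend, each replicate left out, and edgeR 4.0.16 and DESeq2 1.42.0 on the recovered reads. The labels give no batch or date. The replicate numbers were not used to pair the libraries in the main fit. A few named genes are not reported here, although the counts include them.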

Additional observations from a re-analysis of the deposited data

How the results depend on the processing

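The members were chosen for opposite changes and their groups do not overlap, so only the size of their fold changes is compared here. Of 144 fold changes recomputed under settings that can move them, 140 moved by less than the spread between replicates and 4 moved further. The 4 were those in GALNT7 OE of APOE (-1.60; -1.70 with libraries rescaled to a common 75th percentile, -1.50 with quantile normalisation) and DDAH1 (0.49; 0.39 and 0.40). Both scalings ended the calls of LPCAT3 in GALNT7 OE and of ECI2 in GALNT7 KD. In GALNT7 OE they also ended those of the listed genes ACSL3 and SLC25A28 and of the neighbour BCL10, which the counts above include. Quantile normalisation moved FTH1 and FTL in GALNT7 OE by over 1.5 times and ended the call of SYDE2 in GALNT7 KD. It also ended those of the neighbours ZFHX2-AS1 and AC243964.2 in GALNT7 OE. In GALNT7 OE, 75th percentile rescaling moved the median of all genes from -0.011 to -0.11, and the calls from 4290 higher and 3842 lower to 3380 higher and 4736 lower.

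Counts in GALNT7 KD depended on the fit, and the cause was not tested. Against 1623 genes called, DESeq2 called 2642, eBayes without trend 996, and leaving out each replicate 539 to 1336. The 13 higher partner genes became 8 with eBayes without trend and 5 to 11 with replicates left out. The 5 lower partner genes became 8 with DESeq2, 2 with eBayes without trend and 2 to 4 with replicates left out. The 6 neighbours called became 10 with DESeq2 and 1 to 6 with replicates left out. Counts in GALNT7 OE stayed within 1.5 times.

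Over all genes, libraries with the same replicate number showed little shared deviation (correlations from -0.011 to 0.075 in CWR22Rv1 and from 0.016 to 0.043 in DU145). A correlation over all genes cannot show whether a shared preparation moved only some of them. With the replicate block, 1002 genes were called in GALNT7 KD and 7405 in GALNT7 OE, against 8132 without it, and in GALNT7 KD 3 lower partner genes and 3 neighbours.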
